A study of Mus musculus with 4 samples.

Results

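The 5 simple epithelial keratins, *Krt7*, *Krt8*, *Krt18*, *Krt19* and *Krt20*, were followed in bulk RNA-seq of embryonic mouse pancreas. They were taken by gene symbol from the 24391 genes of the deposited count table, and all 5 passed the filter on low counts together with 14550 genes in all. They were selected on the measured log2 fold changes between the genotypes, *Krt20* being set apart from the duct keratins for its change, so the values of that contrast are given here as a description and no test of a keratin among the 5 is read from them.

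The libraries came from 2 *Rest* pKO and 2 control pancreases, both groups at E18.5 and on a mixed background with C57BL/6. *Rest* pKO embryos carried *Pdx1*-Cre and the *Rest* LoxP allele on both chromosomes, and controls carried the same *Pdx1*-Cre with wild-type *Rest*. *Pdx1*-Cre acts in the pancreatic epithelium and its descendants, so mesenchyme, mesothelium, vessels and blood keep *Rest*, and the allele loses exon 4 only. The paper's methods state more pancreases per genotype than the libraries analysed here, and which embryos these are is not stated.

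Keratins are the intermediate filament proteins of epithelia. A filament needs a type I (acidic) and a type II (basic to neutral) keratin in equal amounts, and *Krt8* (type II) with *Krt18* (type I) is the pair of simple epithelia in general, acinar cells of the pancreas included. *Krt7* (type II) and *Krt19* (type I) join them in duct epithelium, and the protein of *Krt19* is the CK19 antigen by which the study stained ducts. *Krt20* (type I) is best known from the surface epithelium of intestine and stomach, from the umbrella cells of the urinary tract and from Merkel cells of the skin. REST is a repressor that keeps neuronal and endocrine genes silent in other cells. In the embryonic pancreas the paper finds it in progenitors, duct cells and, early on, mesenchymal cells.

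The type II genes *Krt7* and *Krt8* and the type I gene *Krt18* lie on chromosome 15, and the type I genes *Krt20* and *Krt19* on chromosome 11 (NCBIM37, the mm9 assembly). *Krt8* (101827142 to 101834773, minus strand) and *Krt18* (101858647 to 101862457, plus strand) are neighbours with 23874 bases between them, and *Krt7* (101241474 to 101260744, plus strand) lies 566398 bases before *Krt8*. *Krt20* (99289717 to 99299464, minus strand) and *Krt19* (100002124 to 100009979, minus strand) stand 702660 bases apart, with other type I keratins between them.

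Promoters of 300 bases around the annotated start were found for 4 of the 5 genes (RefSeq, GRCm38.p6). Those of *Krt20*, *Krt8* and *Krt7* are printed as examples of differing composition. Whether composition bears on the contrast below was not tested. Capitals mark exact matches, on either strand, to the TATA box letters TATAAA, the GC box letters GGGCGG and the left and right parts of the REST element, TTCAGCACC and GGACAGC. The *Krt20* window is chr11:99438104-99438403 (minus strand), that of *Krt8* chr15:102004293-102004592 (minus strand) and that of *Krt7* chr15:101412153-101412452 (plus strand), each written 5′ to 3′ on the gene's strand.
Krt20: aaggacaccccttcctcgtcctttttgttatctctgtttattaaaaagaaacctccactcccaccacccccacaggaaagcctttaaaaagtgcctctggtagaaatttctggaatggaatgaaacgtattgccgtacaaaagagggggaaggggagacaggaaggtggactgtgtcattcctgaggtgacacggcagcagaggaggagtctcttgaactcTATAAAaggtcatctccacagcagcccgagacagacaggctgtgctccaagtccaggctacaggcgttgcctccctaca
Krt8: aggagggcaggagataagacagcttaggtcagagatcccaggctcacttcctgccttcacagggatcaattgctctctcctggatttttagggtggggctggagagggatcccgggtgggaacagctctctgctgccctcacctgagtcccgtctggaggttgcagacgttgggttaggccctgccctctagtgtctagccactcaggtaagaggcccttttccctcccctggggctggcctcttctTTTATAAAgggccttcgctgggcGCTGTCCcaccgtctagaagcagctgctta
Krt7: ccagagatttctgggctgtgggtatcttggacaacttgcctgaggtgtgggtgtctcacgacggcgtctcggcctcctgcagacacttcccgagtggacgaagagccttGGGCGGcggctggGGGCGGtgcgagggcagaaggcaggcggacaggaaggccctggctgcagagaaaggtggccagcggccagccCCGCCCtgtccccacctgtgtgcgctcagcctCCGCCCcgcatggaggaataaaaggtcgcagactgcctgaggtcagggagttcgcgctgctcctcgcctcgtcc

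*Krt20* had a TATAAA beginning at position −29 from its start, letters found in 13.6% of the 32851 promoter windows of the table. *Krt8* had the same letters on both strands, overlapping each other at −1 and −3, and a GGACAGC on the other strand at 21, letters held by 6.56% of windows. *Krt7* had 4 matches to GGGCGG between −141 and −24, which 35.7% of windows hold at least once, and *Krt18* had none of the 4 sets of letters. The longer REST letters, in 0.371% of windows, were in none of the 4 promoters. Of their bases 50% were G or C in *Krt20*, 58% in *Krt8*, 61.3% in *Krt18* and 66.3% in *Krt7*, against a median of 52.7% over all windows. CpG pairs numbered 6 in *Krt20* and *Krt8*, 17 in *Krt18* and 21 in *Krt7* (median 7).

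Some limits of the libraries bear on all 5 genes. Totals were 20738162 and 24134100 counts in *Rest* pKO and 16936759 and 18644088 in controls, and in both genotypes the libraries differed by far more than counting noise (chi-square per degree of freedom 64.9 and 23.2). By *Xist* and Y-linked genes each genotype held 1 female (*Rest* pKO 2, control 1) and 1 male embryo. *Rest* itself was at 12.1 and 9.16 CPM in *Rest* pKO, against 14.2 and 15.7 CPM in controls (CPM, counts scaled by TMM library size; log2 fold change −0.49 ± 0.23 SE, edgeR adjusted p = 0.593). All of its exons are counted, and cells that *Pdx1*-Cre does not reach keep the gene, so this does not measure the loss of exon 4. *Rn45s*, the precursor of ribosomal RNA, was at 2471 and 2274 CPM in *Rest* pKO, against 653 and 806 CPM in controls. Its part in the keratin values was not tested. In bulk tissue, fewer cells of a type and less RNA per cell cannot be told apart.

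*Krt20* had the highest log2 fold change of the 5 keratins. It measured 62.0 and 51.1 CPM in replicates 1 and 2 of *Rest* pKO, from 1338 and 1122 counts, against 11.5 and 28.2 CPM in control replicates 1 and 2, from 193 and 559 counts. The groups did not overlap, and the lower *Rest* pKO library was 1.81-fold above the higher control. The means were 56.6 ± 7.73 CPM in *Rest* pKO and 19.8 ± 11.8 CPM in controls (SD, n = 2 each), a log2 fold change of 1.51 (standard error 0.38, 95% interval 0.62 to 2.39, edgeR fit over all genes), or 2.84-fold. This ranked 55 from the top among 14550 genes.

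The controls disagreed on *Krt20* more than the *Rest* pKO libraries did. They differed from each other 2.45-fold, a gap in log2 CPM that 99.5% of 11052 genes with a mean of at least 5 CPM did not exceed, whereas the *Rest* pKO libraries differed 1.21-fold, at the 49.7th percentile of those genes. The size of the contrast therefore turns on which control is used. Control replicate 1 was the female and control replicate 2 the male, and *Krt20* was higher in the male embryo of both genotypes. Sex cannot be told apart here from other differences between the embryos. With sex as a term the log2 fold change of *Krt20* was 1.63 (standard error 0.28). Without control replicate 1 the log2 fold change was 1.00, and without control replicate 2 it was 2.298. Counting noise is small beside this, at 7.20% of the value for the lowest *Krt20* count.

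**Figure D1:**
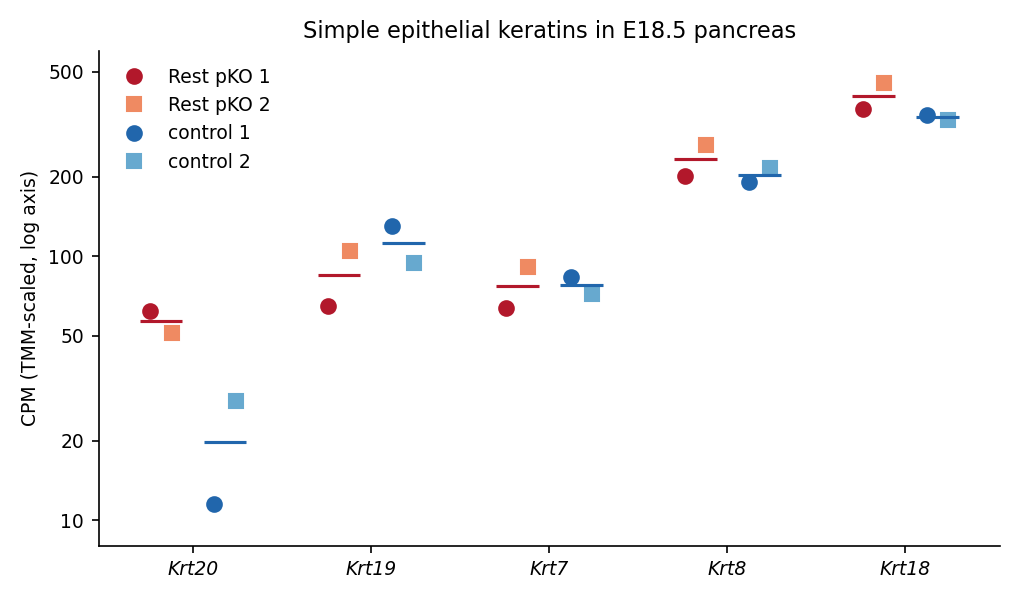
CPM on a log axis for the 5 simple epithelial keratins, each point 1 library (2 *Rest* pKO left, 2 controls right in each gene) and each bar the mean of 2. *Krt20* lies at 62.0 and 51.1 CPM in *Rest* pKO and at 11.5 and 28.2 CPM in controls, while the points of *Krt19*, *Krt7* and *Krt8* overlap between genotypes.

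The duct keratins *Krt19* and *Krt7* overlapped between genotypes. *Krt19* measured 64.8 and 104 CPM in replicates 1 and 2 of *Rest* pKO, against 130 and 94.3 CPM in control replicates 1 and 2. Its means of 84.7 ± 28.1 and 112 ± 25.4 CPM (*Rest* pKO and control, SD, n = 2 each) gave a log2 fold change of −0.41 (standard error 0.27, 95% interval −1.04 to 0.23). The lowest value was that of *Rest* pKO replicate 1, and *Rest* pKO replicate 2 lay between the controls. Without *Rest* pKO replicate 1 the log2 fold change was −0.10, without control replicate 1 −0.16, and without *Rest* pKO replicate 2 and control replicate 2 it was −0.79 and −0.62.

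*Krt7* measured 63.8 and 90.8 CPM in replicates 1 and 2 of *Rest* pKO, against 83.6 and 71.9 CPM in control replicates 1 and 2, so that the *Rest* pKO libraries held both the lowest and the highest value. Its log2 fold change of −0.01 (standard error 0.22) has a 95% interval from −0.52 to 0.50, which leaves room for a change of either sign of up to about that size. *Krt7* and *Krt19* ranked the libraries differently only in the upper places, where *Krt7* was highest in *Rest* pKO replicate 2 and *Krt19* in control replicate 1. Both genes were higher in the female embryo of each genotype.

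The general pair, *Krt8* and *Krt18*, had slightly higher means in *Rest* pKO, with intervals that span 0. *Krt8* measured 202 and 263 CPM in replicates 1 and 2 of *Rest* pKO, against 190 and 215 CPM in control replicates 1 and 2 (log2 fold change 0.20, standard error 0.21, 95% interval −0.28 to 0.68). *Krt18* measured 359.7 and 452 CPM in replicates 1 and 2 of *Rest* pKO, against 344 and 329 CPM in control replicates 1 and 2 (0.27, standard error 0.21, 95% interval −0.21 to 0.75). *Rest* pKO replicate 2 had the highest value of both genes. The *Krt18* libraries did not overlap, yet the lower *Rest* pKO library was only 1.05-fold above the higher control. Without *Rest* pKO replicate 2 the log2 fold changes of *Krt8* and *Krt18* were −0.00 and 0.10, and without *Rest* pKO replicate 1 they were 0.38 and 0.43.

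Of the 5 keratins, *Krt20* and *Krt18* had both *Rest* pKO libraries above both controls, an order found in 21.5% of all genes tested, and none had both below, found in 21.2%. With genotype alone in the model, edgeR's quasi-likelihood test called 4 genes at an adjusted p under 0.05 (0.0275% of 14550), and none of the 5 was among them. At an unadjusted p under 0.05 it had 3.26% of genes higher, *Krt20* among them, and 5.61% lower. DESeq2 called 0.182% of 14250 genes higher and 0.533% lower. When sex was added to the edgeR model, 0.412% were called higher. *Krt20* was among the higher genes of both, and the other 4 keratins were not called. Since this contrast is the one by which *Krt20* was picked out, these calls are given as a record only.

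**Figure D2:**
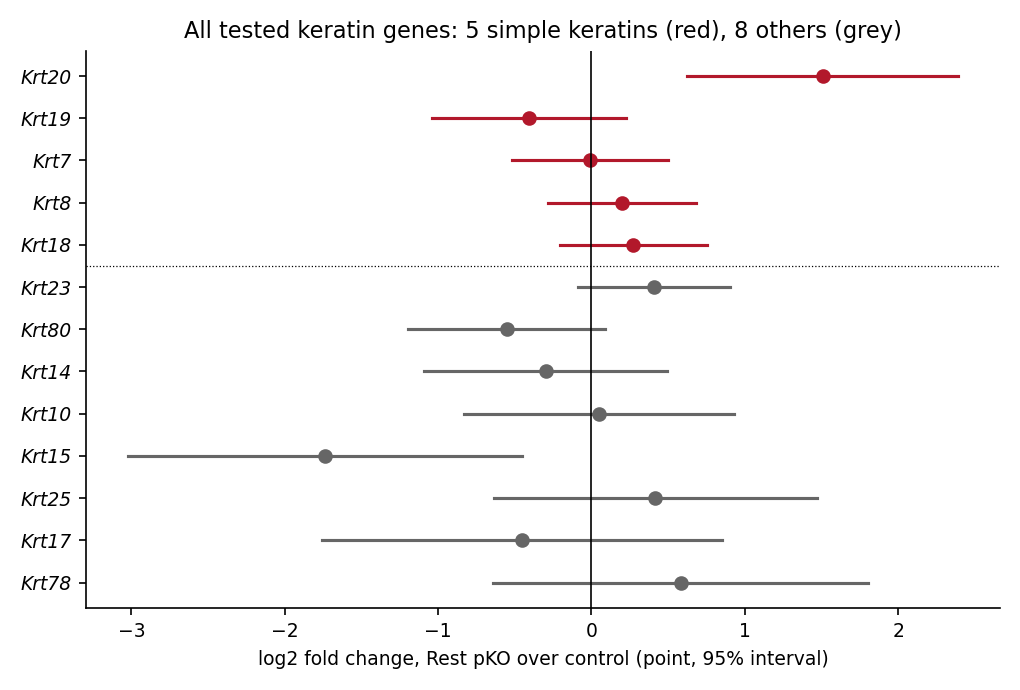
Log2 fold change (*Rest* pKO over control, point) with its 95% interval (line) from the edgeR fit, for the 5 simple epithelial keratins in red and the 8 other keratins tested in grey. *Krt20* at 1.51 and *Krt15* at −1.74 are the points farthest from 0.

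*Krt20* was also set against the other keratins of the same library, where scaling by library size drops out. For every 100 counts of *Krt19* there were 95.7 and 48.9 counts of *Krt20* in *Rest* pKO replicates 1 and 2, against 8.82 and 29.9 in control replicates 1 and 2. For every 100 counts of *Krt7* there were 97.3 and 56.3 in *Rest* pKO, against 13.7 and 39.2 in controls. *Krt20* thus came close to the counts of the duct keratins in *Rest* pKO replicate 1 and stayed well below them in the other 3 libraries.

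In log2 CPM, *Krt20* minus the mean of *Krt7* and *Krt19* was −0.05 and −0.93 in *Rest* pKO replicates 1 and 2, against −3.17 and −1.54 in control replicates 1 and 2. The difference between genotypes was 1.87 (means −0.49 ± 0.62 and −2.36 ± 1.15, *Rest* pKO and control, SD, n = 2 each). It was 1.67 against *Krt7* alone and 2.07 against *Krt19* alone. Against the mean of *Krt8* and *Krt18* it was 1.41, from −2.12 and −2.75 in *Rest* pKO and −4.46 and −3.23 in controls. Without control replicate 1 the differences from the duct keratins and from this pair were 1.05 and 0.80. The order of the 4 libraries was the same against each of these references, with *Rest* pKO replicate 1 highest and control replicate 1 lowest.

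The level of each keratin was compared per kilobase of its longest coding transcript (CPM per kilobase). By this measure *Krt18* was the most abundant, at 257 and 323 in *Rest* pKO and 246 and 235 in controls. *Krt8* came next, at 112 and 146 in *Rest* pKO, against 105 and 119 in controls. *Krt19* followed, at 41.1 and 66.3 in *Rest* pKO, against 82.6 and 59.8 in controls. These 3 levels kept their order in all 4 libraries, and *Krt19* stood above *Krt7* and *Krt20* in each.

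*Krt20* was at 32.2 and 26.5 CPM per kilobase in *Rest* pKO, against 5.96 and 14.6 in controls, and *Krt7* at 15.6 and 22.2 in *Rest* pKO, against 20.4 and 17.6 in controls. *Krt20* therefore stood above *Krt7* in both *Rest* pKO libraries and below it in both controls. This order depends on the annotated length of *Krt7*, whose longest transcript has 4094 bases but only 1374 of coding sequence. Per kilobase of coding length *Krt7* was at 46.4 and 66.1 in *Rest* pKO and *Krt20* at 47.9 and 39.4, so that *Krt20* exceeded *Krt7* in *Rest* pKO replicate 1 only.

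*Krt18* took 56.1% and 55.3% of the summed CPM per kilobase of the 5 genes in *Rest* pKO, against 53.4% and 52.6% in controls. *Krt19* took 8.99% and 11.4%, against 17.96% and 13.4%, and *Krt20* 7.04% and 4.54%, against 1.30% and 3.28%. Among type I keratins alone, *Krt20* made up 9.75% and 6.38% in *Rest* pKO, against 1.78% and 4.73% in controls, and *Krt19* 12.5% and 15.9%, against 24.7% and 19.3%. The sum of type I over type II keratins per kilobase was 2.59 and 2.47 in *Rest* pKO, against 2.66 and 2.26 in controls, with the *Rest* pKO libraries inside the range of the controls. Per kilobase of coding length it was 2.09 and 1.96, against 2.04 and 1.80, and *Rest* pKO replicate 1 was then the highest.

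**Figure D3:**
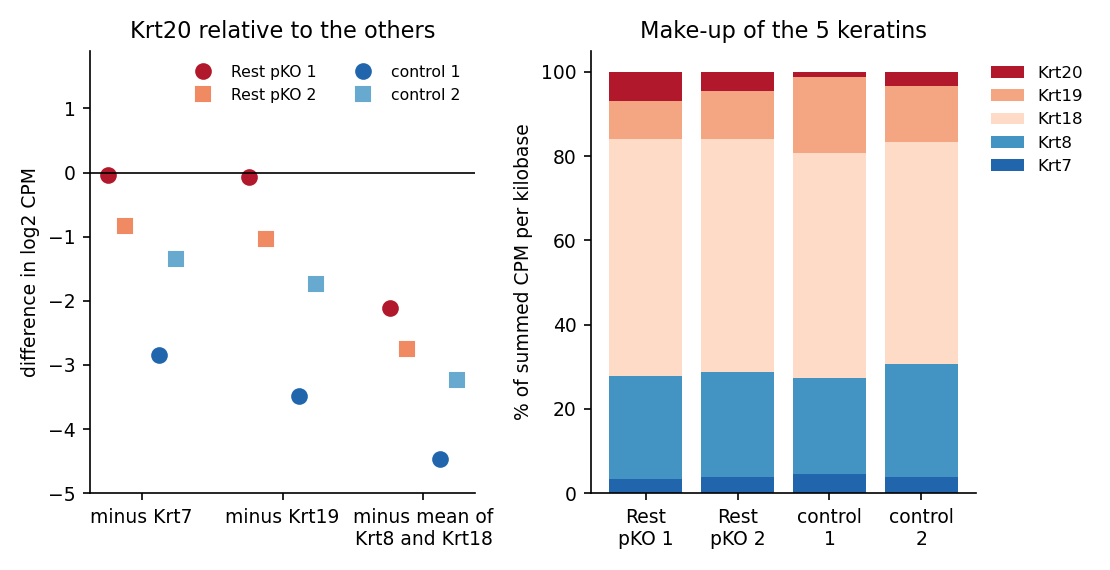
Left, log2 CPM of *Krt20* minus that of *Krt7*, *Krt19* or the mean of *Krt8* and *Krt18*, each point 1 library. Right, the share of each keratin in their summed CPM per kilobase, 1 bar a library, where *Krt20* takes 7.04% and 4.54% in *Rest* pKO and 1.30% and 3.28% in controls.

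Copies of these genes elsewhere in the genome limit what uniquely mapped reads can count. For *Krt8*, 1 other locus matched 96% of the transcript at up to 97.9% identity, and for *Krt18*, 2 other loci matched 98.9% at up to 93.2% (matches of at least 100 bases at 90% identity or more). For *Krt19* such matches covered 10.2% and for *Krt7* 7.18% of the transcript, in *Krt7* a repeat found at 3038 loci. *Krt20* had none, and no member had a match at 98% identity or more. Reads of *Krt8* and *Krt18* may thus have been lost or gained to an extent that was not tested.

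The table holds 47 further keratin genes, of which 8 could be tested and 18 had no count in any library. Of the 8, 4 were above 0 and 4 below, with a median log2 fold change of −0.12 beside −0.0048 over all genes tested. None passed the test over all genes (lowest adjusted p = 0.463 from edgeR). *Krt15* alone was at an unadjusted p under 0.05, and lower, as were 5.61% of all genes tested. Without control replicate 1 the median was 0.36, so the sign of the median rests on that library.

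*Krt15*, a type I keratin of basal cells in stratified epithelia, was at 0.510 and 1.41 CPM in *Rest* pKO, against 4.11 and 2.37 CPM in controls (log2 fold change −1.74 ± 0.55 SE, with an adjusted p = 0.463 in edgeR and 0.325 in DESeq2). It lies 4861 bases past the 3′ end of *Krt19*. *Krt14*, the other basal-cell keratin near *Krt19*, overlapped between genotypes (log2 fold change −0.30, adjusted p = 0.780 from edgeR). *Krt23*, a type I keratin that lies 39824 bases from *Krt20*, was at 12.9 and 11.8 CPM in *Rest* pKO, against 9.29 and 9.33 CPM in controls (log2 fold change 0.41 ± 0.21 SE, edgeR adjusted p = 0.632). *Krt10*, the nearest tested gene on the other side of *Krt20*, differed by 0.05 ± 0.38 (SE) on the log2 scale.

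*Krt80*, the type II gene next to *Krt7* that was high enough to test, was at 4.13 and 5.60 CPM in *Rest* pKO, against 7.02 and 7.26 CPM in controls (log2 fold change −0.55 ± 0.28 SE, edgeR adjusted p = 0.615). Beside *Krt8* and *Krt18*, *Eif4b*, a translation initiation factor, differed by 0.13 ± 0.18 (SE) on the log2 scale. No tested neighbour within 100000 bases of a simple keratin passed the test. Among the keratins too low to test, *Krt4* and *Krt13*, a pair of the oesophagus and other wet stratified epithelia named after their values were seen, had 44 and 37 counts in *Rest* pKO replicate 1. They had 10 and 0 counts in *Rest* pKO replicate 2, against 0 and 0 in control replicate 1 and 3 and 1 in control replicate 2. Most of those reads came from the library with the highest *Krt20*, and their part in its *Krt20* value was not tested.

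Genes that anchor keratin filaments were counted next. Of 18 genes for plakins, desmosomes, integrins of hemidesmosomes and other keratin-linked proteins 17 were tested. Of these 7 were above 0 and 10 below, with a median log2 fold change of −0.11 (0.02 without *Rest* pKO replicate 2). The groups did not overlap in 1 gene with *Rest* pKO higher and in 5 with *Rest* pKO lower (21.5% and 21.2% of all genes tested). edgeR called none (lowest adjusted p = 0.357). At an unadjusted p under 0.05 there were 0 higher and 2 lower (3.26% and 5.61% of all genes tested). DESeq2 called 1 lower (0.533% over all genes). That gene was *Plec*, encoding plectin, the linker of intermediate filaments to hemidesmosomes and actin, at 57.2 and 75.5 CPM in *Rest* pKO, against 132 and 136 CPM in controls. On the log2 scale it differed by −1.02 ± 0.20 (SE), with an adjusted p = 0.357 in edgeR and 0.00539 in DESeq2. *Ppl*, periplakin, was at 26.0 and 34.7 CPM in *Rest* pKO, against 60.2 and 44.2 CPM in controls (log2 fold change −0.78, adjusted p = 0.443 from edgeR). *Plec* is expressed in most tissues, so its counts are not those of epithelium alone.

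Epithelial genes at large set the scale for *Krt8* and *Krt18*. Of 16 pan-epithelial genes, such as the adhesion gene *Cdh1*, 13 were above 0 and 3 below, with a median log2 fold change of 0.31 (0.19 without *Rest* pKO replicate 2). In 9 of them the groups did not overlap with *Rest* pKO higher, and in none with *Rest* pKO lower (21.5% and 21.2% of all genes tested). edgeR called none (lowest adjusted p = 0.495), and 2 were higher at an unadjusted p under 0.05 (3.26% of all genes tested). They were *Cldn4*, a claudin of tight junctions (log2 fold change 0.61), and *Elf3*, an epithelial transcription factor (0.48). Relative to the mean of this list in the same library, the log2 fold changes were −0.04 for *Krt8*, 0.03 for *Krt18*, −0.26 for *Krt7*, −0.66 for *Krt19* and 1.41 for *Krt20*. By library, *Krt19* stood at −0.64 and −0.02 in *Rest* pKO replicates 1 and 2 after subtracting the list, against 0.59 and 0.07 in control replicates 1 and 2 (each centred over the 4 libraries). Its −0.66 therefore rests mostly on *Rest* pKO replicate 1 and control replicate 1, and was −0.35 and −0.40 without each of them. *Krt20* stood at 0.87 and 0.53 in *Rest* pKO, against −1.32 and −0.09 in controls, and its 1.41 was 0.79 without control replicate 1. The general pair stayed between −0.21 and 0.16 whichever library was left out.

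Of 20 duct and bipotent progenitor genes 19 were tested, 8 above 0 and 11 below, with a median of −0.04 and none called by edgeR or DESeq2 or at an unadjusted p under 0.05 (lowest adjusted p = 0.562 from edgeR). The groups did not overlap in 4 genes with *Rest* pKO higher and in 2 with *Rest* pKO lower (21.5% and 21.2% of all genes tested). The median was 0.18 without *Rest* pKO replicate 2, 0.0064 without control replicate 2 and −0.20 without *Rest* pKO replicate 1. Its sign therefore turns on which library is left out. *Onecut1*, a progenitor transcription factor, was at 6.96 and 5.37 CPM in *Rest* pKO, against 9.76 and 8.83 CPM in controls (log2 fold change −0.59). *Car2*, the carbonic anhydrase of duct cells, was at 13.0 and 9.16 CPM in *Rest* pKO, against 11.5 and 31.8 CPM in controls. *Sctr*, the secretin receptor of duct cells, was at 1.85 and 2.23 CPM in *Rest* pKO, against 0.952 and 1.61 CPM in controls (log2 fold change 0.66). *Ehf*, an epithelial transcription factor, was at 89.7 and 50.5 CPM in *Rest* pKO, against 48.6 and 56.8 CPM in controls (log2 fold change 0.41). None of these 4 genes, the lowest of the list by p, was called by either tool. The summed level of the list, in which abundant genes weigh most, was 3234 and 3111 CPM in *Rest* pKO, against 2893 and 2510 CPM in controls. The mean log2 deviation of the duct list from its average over the 4 libraries was 0.14 and −0.19 in *Rest* pKO replicates 1 and 2, against −0.04 and 0.09 in control replicates 1 and 2. It was highest in *Rest* pKO replicate 1, where *Krt19* and *Krt7* were lowest and *Krt20* highest.

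Other tissues that express *Krt20* or the duct keratins were read from their markers. Of 15 gut genes, the defining *Cdx1*, *Fabp2* and *Sis* were at 0 in all 4 libraries, *Cdx2* had 1 count in control replicate 2, and 4 were high enough to test. Of these 1 was above 0 and 3 below, with a median log2 fold change of −0.51 that turned to 0.36 without control replicate 1, and none was called by edgeR or at an unadjusted p under 0.05. *Vil1*, the villin of microvilli, was at 11.96 and 49.3 CPM in *Rest* pKO, against 32.3 and 32.2 CPM in controls, highest in *Rest* pKO replicate 2. Of 13 stomach genes, *Muc5ac*, *Tff1*, *Gkn2* and *Atp4b* were at 0 in all 4 libraries, and 5 were tested. Of these 4 were above 0 and 1 below, with a median log2 fold change of 0.64 (0.33 without *Rest* pKO replicate 2). In 3 the groups did not overlap with *Rest* pKO higher (21.5% of all genes tested), and none was called by edgeR. *Tff2*, a trefoil peptide of gastric mucous cells, was at 85.7 and 130 CPM in *Rest* pKO, against 65.2 and 71.9 CPM in controls (log2 fold change 0.65 ± 0.23 SE, edgeR adjusted p = 0.495). *Gkn3*, a gastrokine, was at 0.835 and 0.592 CPM in *Rest* pKO, against 0.298 and 0.303 CPM in controls (log2 fold change 1.23), and *Atp4a*, a subunit of the gastric proton pump, at 5.84 and 9.88 CPM, against 5.24 and 4.84 CPM (0.64). *Muc6*, a gland mucin, was at 0.742 and 0.228 CPM in *Rest* pKO, against 0.536 and 1.56 CPM in controls (log2 fold change −1.13). The part of these tissues in the *Krt20* values was not tested.

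Of 3 urothelial genes, *Upk2* had 1 count in *Rest* pKO replicate 1 and none elsewhere, and *Upk1a* overlapped between genotypes. *Upk3a*, a uroplakin of the umbrella cell membrane, was at 14.0 and 12.1 CPM in *Rest* pKO, against 3.75 and 6.86 CPM in controls (log2 fold change 1.29 ± 0.32 SE, with an adjusted p = 0.396 in edgeR and 0.0612 in DESeq2). Its libraries stood in the same order as those of *Krt20*.

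Mesothelium, the serous covering of the organ, also makes simple keratins. All 7 of its markers tested were below 0, with a median of −0.94. At an unadjusted p under 0.05, 6 of them were lower, as were 5.61% of all genes tested. None passed in edgeR (lowest adjusted p = 0.357), and DESeq2 called 2 lower (0.533% over all genes). *Lrrn4*, a mesothelial membrane protein, was at 30.9 and 39.2 CPM in *Rest* pKO, against 90.4 and 66.4 CPM in controls (log2 fold change −1.16 ± 0.22 SE, with an adjusted p = 0.357 in edgeR and 0.00443 in DESeq2). The summed level of the list was 161 and 234 CPM in *Rest* pKO, against 374 and 316 CPM in controls. The libraries with the lowest and the highest sum, *Rest* pKO replicate 1 and control replicate 1, were also those with the lowest and the highest *Krt19*. Between the remaining libraries the order was reversed, with the lower sum but the higher *Krt19* in *Rest* pKO replicate 2. The mesenchyme and immediate-early lists below had the same lowest and highest library by mean log2 deviation. The part of the mesothelium in *Krt19* was not tested.

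**Figure D4:**
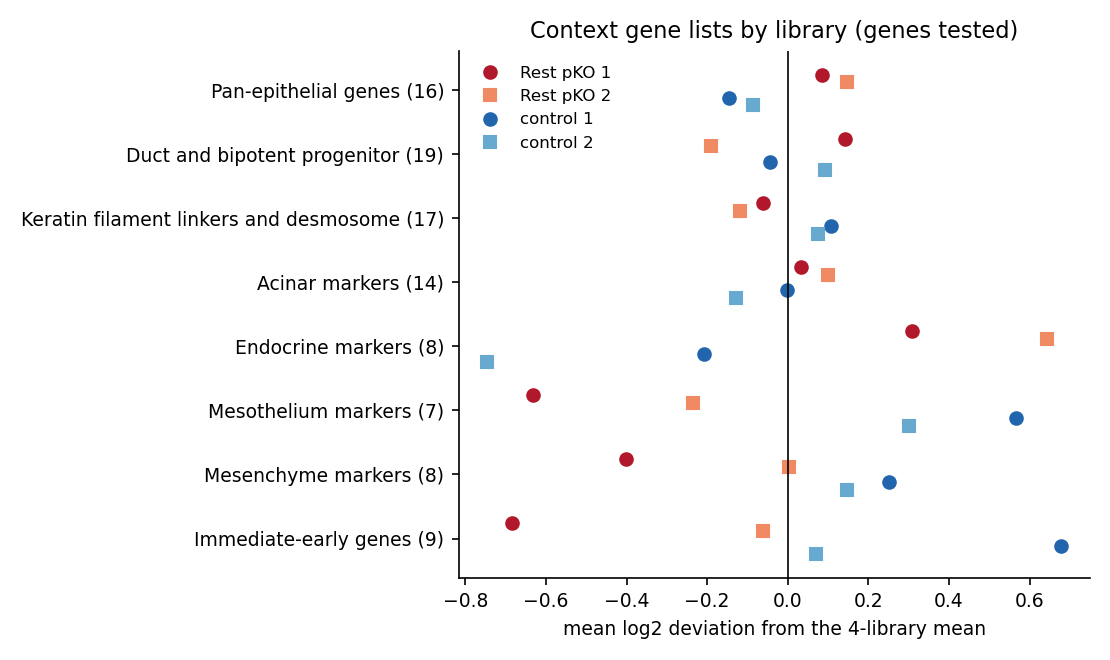
Mean log2 deviation of each context list from its average over the 4 libraries, each point 1 library, with the number of genes tested in brackets. Pan-epithelial genes lie at 0.08 and 0.15 in *Rest* pKO and at −0.15 and −0.09 in controls, and mesothelium markers at −0.63 and −0.23 in *Rest* pKO and at 0.57 and 0.30 in controls.

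Acinar markers, whose cells make *Krt8* and *Krt18*, had a median log2 fold change of 0.18, with 13 of 14 above 0 and none called by edgeR or DESeq2. The median was 0.03 without *Rest* pKO replicate 2, 0.08 without control replicate 2, 0.29 without control replicate 1 and 0.09 with a replicate block. They took 23.3% and 29.3% of all counts in *Rest* pKO, against 22.9% and 23.2% in controls, highest in *Rest* pKO replicate 2, as *Krt8* and *Krt18* were. All 8 endocrine markers were above 0, with a median of 0.83. At an unadjusted p under 0.05, 6 of them were higher, as were 3.26% of all genes tested. None was called by edgeR, while DESeq2 called 4 higher (0.182% over all genes). Without control replicate 1 that median was 1.25. Of 8 mesenchyme markers 1 was above 0 and 7 below (median −0.43). Of these, 3 were lower at an unadjusted p under 0.05 (5.61% of all genes tested), and none was called by edgeR or DESeq2. Without *Rest* pKO replicate 1 the median was −0.15. Immediate-early and heat shock genes were below 0 in all 9 tested (median −0.57). Of these, 3 were at an unadjusted p under 0.05 (5.61% of all genes tested were lower), and none was called by edgeR or DESeq2. That median was −0.17 without *Rest* pKO replicate 1, −1.15 without *Rest* pKO replicate 2, −0.30 without control replicate 1 and −0.92 without control replicate 2. The part of these cell types, and of handling of the tissue, in the keratin values was not tested.

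Genes with the library pattern most like that of each keratin were sought by Euclidean distance between log2 CPM centred over the 4 libraries, among 11051 genes with a mean of at least 5 CPM. With 4 libraries such likeness is a description only. Nearest to *Krt20* was *Upk3a* (distance 0.43, median of all genes 1.92), followed by *Mir6236*, *Ehd3*, a protein of endocytic recycling, *Lars2*, the leucyl-tRNA synthetase of mitochondria, and *Rn45s*, the precursor of ribosomal RNA (distances 0.51 to 0.71). *Rn45s* was at 2471 and 2274 CPM in *Rest* pKO, against 653 and 806 CPM in controls (log2 fold change 1.70 ± 0.23 SE, with an adjusted p = 0.317 in edgeR and 4.18e-12 in DESeq2). All of these genes were picked for their likeness to *Krt20*, so their moving with it, or with one another, is no separate observation. The part of ribosomal RNA left in the libraries in the values of *Krt20*, *Mir6236* and *Lars2* was not tested.

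Nearest to *Krt19* were *Smim3*, *Anks4b*, a scaffold of the brush border, *Cldn15*, a claudin, *Fmod*, a collagen-binding proteoglycan, and *Loxl4*, a lysyl oxidase (distances 0.03 to 0.10, median of all genes 0.83). Among the 5 keratins the closest pair was *Krt8* and *Krt18* (0.19), followed by *Krt7* and *Krt18* (0.33), *Krt7* and *Krt8* (0.36) and *Krt7* and *Krt19* (0.46). *Krt20* was 1.72 to 2.51 from the other 4, nearest to *Krt8* and farthest from *Krt19*.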

How the data were processed

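RNA was measured in 4 libraries of whole E18.5 pancreas, 2 *Rest* pKO and 2 control, grouped by the labels. Per gene, the authors deposited raw counts, made by aligning 100-bp paired-end reads to mm9 with STAR, keeping uniquely mapped reads and counting them per UCSC gene with featureCounts (1.5 in the submitters' processing notes). Strand and pair settings are not given in the sources used here. After filterByExpr and TMM scaling, genotype was tested with edgeR 4.0.16 in R 4.3.3 (glmQLFit, glmQLFTest, Benjamini-Hochberg, threshold 0.05), and the procedure was checked on simulated data. Standard errors are the log2 fold change over the square root of F, and log2 CPM used a prior count of 2. With 2 libraries per genotype there are 2 residual degrees of freedom, to which edgeR adds a median of 5.48 borrowed across genes. Its p-values and intervals thus rest on the spread between these libraries, pooled in part over genes, and measure no spread beyond them. Alternatives were DESeq2 1.42.0 and its size factors, TMM without acinar and erythroid genes, other filters, sex or the replicate number as a term, the pan-epithelial mean as denominator, and each library left out. Coding-length levels, single duct keratins as reference and left-out libraries for the pan-epithelial denominator were added after seeing the data. Named genes are the 5 keratins, *Rest*, the other keratins tested, up to 4 genes of each list by p, and 5 pattern neighbours of *Krt20* and *Krt19*; neighbours on the chromosome, marker genes at or near 0, *Krt4*, *Krt13* and *Cdh1* fall outside that rule. The members and lists were chosen with earlier results of these data known. Lengths and positions are from GENCODE M1 (NCBIM37). Protein sequences were not used here.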

Additional observations from a re-analysis of the deposited data

How the results depend on the processing

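Over all genes, edgeR called 0 higher and 4 lower. It called 60 higher and 187 lower with sex as a term, DESeq2 called 26 and 76, and leaving out 1 library gave 1 to 59 higher and 0 to 455 lower. With a replicate block edgeR called 4 genes and the log2 fold change of *Krt20* was 1.62. Samples with the same number shared little (correlation of deviations 0.05), and the block changed no call among the 5 keratins. Leaving out 1 library moved *Krt20* between 1.00 and 2.298, its difference from the duct keratins between 1.05 and 2.68, and the median of the other keratins between −0.36 and 0.36. *Krt20* stayed above 0 under all 12 alternatives run for it. *Krt7* and *Krt8* changed sign under some settings (*Krt7* 0.23 without *Rest* pKO replicate 1, *Krt8* −0.04 against the pan-epithelial mean). edgeR called *Krt20* without control replicate 2 and not without the others. The cause of these shifts was not tested, and leaving out 1 library also leaves 1 genotype with 1 sex only. Depth limits none of the 5 keratins, each with at least 193 counts a library, whereas 39 other keratins were too low to test.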
